A study of Homo sapiens with 9 samples.

Results

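The first exons of protein-coding mRNAs were followed across the 9 libraries of an enhanced cross-linking and immunoprecipitation (eCLIP) experiment on the malate dehydrogenase MDH2. The deposited counts assign cross-link sites to windows of 50 nt that begin every 20 nt along each exon and intron, so that 1 site lies in up to 3 windows. All windows of exon 1 were taken for Ensembl identifiers whose gene type is protein_coding in GENCODE, that lie on a nuclear chromosome and that have at least 3 different exon numbers in the file. This gave 131965 windows in 9625 genes, out of 15767969 windows in all and out of 12142 such genes. The same genes had 1258641 windows in internal exons and 856277 windows in their highest-numbered exon, and these served for comparison. A first exon had a median of 9 listed windows, and 1307 of its windows carried counts identical to those of a window of another gene, as happens where annotated genes overlap. Some were far longer, with 259 listed windows in RPL37A, 183 in HNRNPA2B1 and 71 in RPL32. In RPL37A exon 1 held 30 to 513 counts per library and the other exons 0 to 9. Counts in exon 1, as the file numbers it, therefore need not lie near the 5′ end.

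The cells were Huh7, an established human hepatoma line, and were irradiated with UV light, which links proteins to the RNA they touch. In the MDH2 IP group, MDH2 was precipitated with its antibody after partial digestion of the RNA with RNase I. In the IgG IP group an isotype-matched IgG took the place of that antibody, and in the size-matched input (SMI) group RNA of the same size range was taken from the lysate without precipitation. Each group held 3 replicates, and since the labels do not tie them to separate cultures, the p-values measure only the spread between these samples. Library preparation used 14 PCR cycles in both IP groups and 9 in SMI, so the number of cycles cannot be told apart from the difference between IP and SMI.

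The first exon of an mRNA carries the cap and most or all of the 5′ UTR, where the small ribosomal subunit loads and scans for the start codon. It is usually rich in G and C, since many promoters lie in CpG islands that extend into the transcribed sequence. mRNAs of ribosomal proteins and of several translation factors begin with a C and a run of pyrimidines, the 5′ terminal oligopyrimidine (5′TOP) motif, through which their translation is regulated. MDH2 itself is an enzyme of the tricarboxylic acid (TCA) cycle that interconverts malate and oxaloacetate in the mitochondrial matrix. In eCLIP the reverse transcriptase stops at the cross-linked nucleotide, so each count marks a contact between RNA and protein, while SMI records the contacts of all proteins of the size range.

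The following windows are shown because the results below turn on them. Sequences were read from GRCh38, 5′ to 3′ on the transcribed strand, and each is a stretch of 30 bases inside or around the window. For MDH2 and METAP2 the capitals mark the annotated start codon. For CDK9 they mark the 10 nt that must hold the stacked cross-link sites. For NDUFS7 and DPP9 they mark the letters of the B box, the internal promoter element of tRNA genes, searched as GGTTCGA followed by any 2 bases and CC. The other windows have no capitals.
MDH2 (chr7:76048146-76048175, plus strand): cctcccgctccagccATGctctccgccctc
METAP2 (chr12:95474165-95474194, plus strand): gctctctcgggcaacATGgcgggtgtggag
CDK9 (chr9:127785729-127785758, plus strand): gcactgcggcTGGCCCCGGAtcgggcgcca
TUSC2 (chr3:50328184-50328213, minus strand): gcggaaggcggcggcggcggcacctgcgat
APOB (chr2:21044014-21044043, minus strand): ccttctcggttgctgccgctgaggagcccg
NDUFS7 (chr19:1383599-1383628, plus strand): taaccgaaaggttggtGGTTCGAGCCCacc
DPP9 (chr19:4724637-4724666, minus strand): aaaggtccccGGTTCGATCCCgggcggaaa
WDR74 (chr11:62841699-62841728, minus strand): gacaatatattaaatggatttttggaaata
RPL32 (chr3:12840352-12840381, minus strand): ctggcagaggcacccattccattcccagct

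First exons held a larger share of the exon counts in both kinds of precipitate than in the input. Of the cross-link counts in exons of the genes with at least 3 exon numbers, first exons took 8.52%, 9.24% and 9.46% in the MDH2 IP libraries. The SMI libraries gave 7.25%, 7.06% and 6.70%, and the IgG IP libraries 9.21%, 9.27% and 10.1%. The mean was 9.07% ± 0.49 (SD, n = 3) for MDH2 IP, 7.0% ± 0.28 for SMI and 9.52% ± 0.49 for IgG IP. Every library of either precipitate lay above every SMI library, with an exact two-sided permutation p of 0.1 in each case, which is the smallest that 3 against 3 libraries allow. MDH2 IP and IgG IP overlapped, and the exact permutation p for their difference was 0.5. As a share of all counts, with introns and other genes included, the 3 groups did not overlap. First exons then took 3.92%, 4.60% and 4.37% in MDH2 IP, 2.88%, 2.65% and 2.58% in IgG IP and 2.34%, 2.51% and 2.25% in SMI. Internal exons held 61.8% ± 1.5 of the exon counts in MDH2 IP, while SMI had 57.3% ± 0.68 and IgG IP 58.7% ± 1.6. The highest-numbered exons, which carry most of the 3′ UTR, held 29.1% ± 1.3, 35.7% ± 0.74 and 31.8% ± 1.3. Under 10 genes, those with the most first-exon counts, lay 6.44% ± 0.45 of first-exon counts in MDH2 IP, 6.77% ± 0.21 in IgG IP and 17.3% ± 1.3 in SMI. Without these genes the shares of first exons were 8.61% ± 0.48, 5.92% ± 0.21 and 8.99% ± 0.47 in MDH2 IP, SMI and IgG IP. Genes at the border of the selection gave higher shares in both groups compared here. The 1034 genes with 3 exon numbers had 25.7% ± 0.62 of their exon counts in exon 1 in MDH2 IP and 19.1% ± 0.28 in SMI, and the 1254 genes with 2, which were not used, had 37.7% ± 0.77 and 31.6% ± 1.5.

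**Figure D1:**
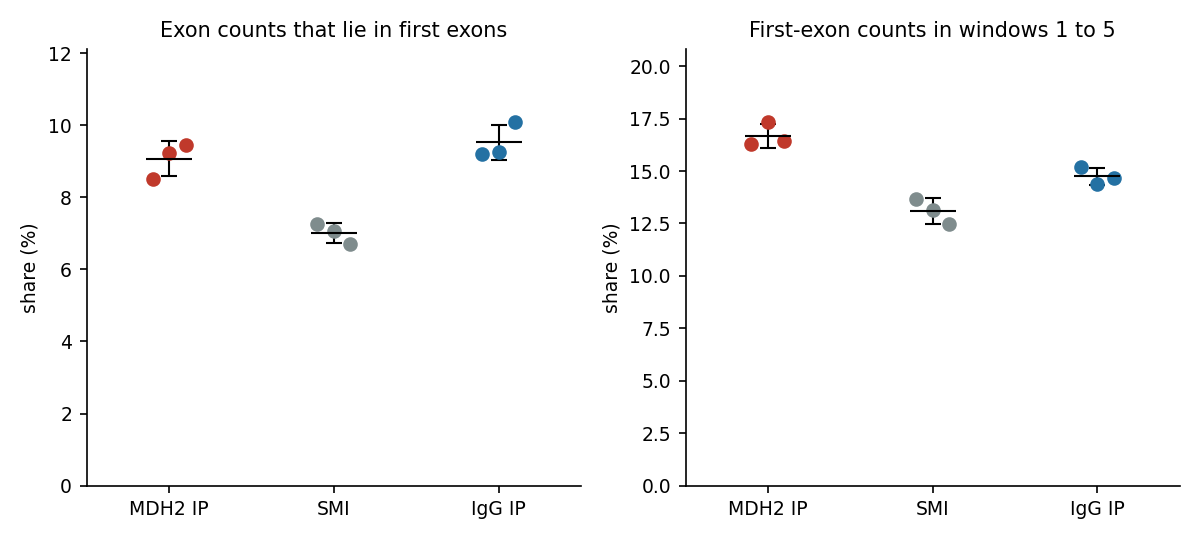
Share of protein-coding exon counts that lie in first exons (left, percent) and share of first-exon counts that lie in windows 1 to 5 (right, percent) in the 9 libraries. Both were taken from windows 3 steps apart. Points are libraries, and the bars give the mean and SD of 3 libraries. On the left MDH2 IP (9.07%) and IgG IP (9.52%) lie above SMI (7.0%), and on the right MDH2 IP (16.7%) lies above IgG IP (14.7%) and SMI (13.1%).

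Within the first exon, the counts lay nearer to the 5′ end in the precipitates. On the plus strand windows were numbered from the 5′ end of the exon. For the 4674 genes on the minus strand they were numbered from the outermost window listed in the file, which need not lie at the 5′ end. Windows 1 to 5 span 130 nt. Over the 3662 first exons with a window number of 15 or more, they held 16.3%, 17.3% and 16.4% of first-exon counts in MDH2 IP. They held 13.7%, 13.1% and 12.5% in SMI and 15.2%, 14.4% and 14.7% in IgG IP. The 3 groups did not overlap, and each of the 3 pairs gave the smallest exact permutation p of 0.1. Windows 26 and beyond held 26.8% ± 1.1 in MDH2 IP, against 31.7% ± 0.78 in SMI and 27.7% ± 0.74 in IgG IP. The order depended on which exons entered. With the 5467 first exons that reach window 10, windows 1 to 5 held 23.3% ± 0.60 in MDH2 IP, against 25.6% ± 0.98 in SMI and 21.7% ± 0.42 in IgG IP, so that SMI came first. When the 10 genes with the most first-exon counts were also left out, the values were 22% ± 0.48, 17.4% ± 0.57 and 19.7% ± 0.41, in the former order. One of those genes is WDR74, whose first exon reaches only window 11 and overlaps the gene of a U2 snRNA copy described below.

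The excess was not confined to exon 1. Among genes with at least 8 exon numbers, exon 1 took 6.81% ± 0.37 of exon counts in MDH2 IP, against 5.33% ± 0.26 in SMI and 7.33% ± 0.41 in IgG IP. Relative to the SMI mean this was 1.28 ± 0.069 for MDH2 IP and 1.38 ± 0.076 for IgG IP. Exon 2 stood at 1.21 ± 0.036 and 1.49 ± 0.094, exon 3 at 1.10 ± 0.0087 and 1.28 ± 0.054, and exon 4 at 1.05 ± 0.0072 and 1.14 ± 0.010. In exon 6 both were within the spread of SMI, at 0.99 ± 0.0084 and 1.00 ± 0.014. Further downstream the precipitates parted, since exons 8 to the last but 1 stood at 1.09 ± 0.037 in MDH2 IP, with every library above every SMI library, and at 0.95 ± 0.049 in IgG IP. The highest-numbered exon was below SMI in both, at 0.80 ± 0.038 in MDH2 IP and 0.89 ± 0.044 in IgG IP. MDH2 IP was thus highest, relative to SMI, in exon 1, while IgG IP was highest in exon 2.

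**Figure D2:**
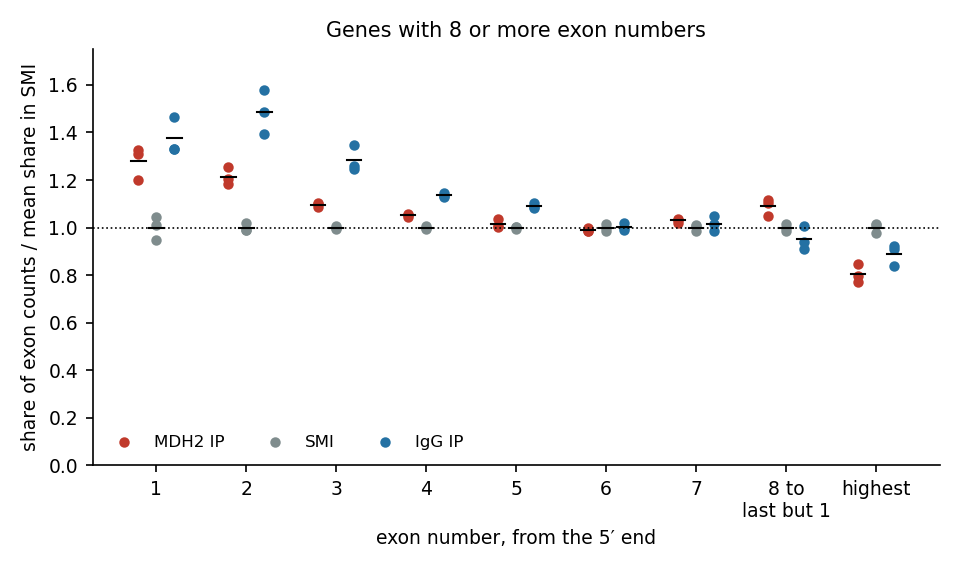
Share of exon counts by exon number in genes with at least 8 exon numbers, divided by the mean share in SMI (vertical axis, ratio). Points are the single libraries of MDH2 IP, SMI and IgG IP, short bars are group means, and the dotted line marks the SMI mean. The mean ratio falls from 1.28 (MDH2 IP) and 1.38 (IgG IP) in exon 1 to 0.99 and 1.00 in exon 6, is 1.09 and 0.95 in exons 8 to the last but 1, and lies below 1 in the highest-numbered exon.

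To remove differences in the level of the mRNA itself, the first exon was compared with the other exons of the same gene in the same library. A gene's shift is the log2 change of this ratio between groups. The median log2 ratio of first-exon to other-exon counts was -2.21, -1.99 and -2.05 in the MDH2 IP libraries, -2.84, -2.94 and -2.97 in SMI and -2.05, -2.10 and -1.95 in IgG IP. Between MDH2 IP and SMI, 2245 genes of the set could be tested with edgeR, that is, they had at least 10 counts in both parts in at least 3 of the 6 libraries. Of these, 1130 were shifted towards the first exon and 15 away from it at an adjusted p of 0.05. The share over all 2428 genes tested, nearly all of which belong to the set, was 49.7% and 0.865%. The median shift was 0.75 (quartiles 0.39 and 1.14), and 2046 genes had a value above 0. Between IgG IP and SMI, 346 of 1191 genes were shifted towards the first exon and 13 away from it (28.5% and 1.15% over all genes tested), with a median of 0.71. Without IgG IP replicate 1 the 346 became 194. Between MDH2 IP and IgG IP, 22 of 1911 genes were shifted towards the first exon and 74 away from it (1.22% and 3.85% over all genes tested), with a median of 0.03. The 22 became 12 without either IgG IP replicate 2 or 3, and the 74 became 40 and 43. Without MDH2 IP replicate 2 or 3, only 646 and 652 genes could be tested, of which 8 and 11 were shifted towards the first exon and 47 and 55 away from it. For the 1148 genes tested in all 3 comparisons, which share their libraries pairwise, the medians were 0.70 for MDH2 IP over SMI, 0.70 for IgG IP over SMI and -0.0030 for MDH2 IP over IgG IP. The reference exons mattered for the number of calls: against exon 2 alone, 130 of 666 genes were shifted towards exon 1 in MDH2 IP over SMI with a median of 0.52, and 25 of 331 in IgG IP over SMI.

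**Figure D3:**
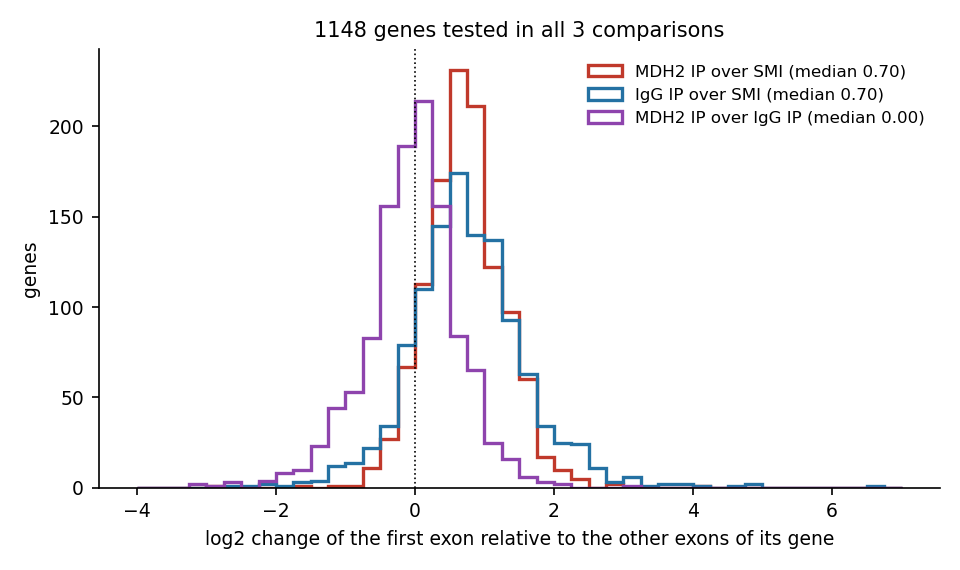
Histograms of the shift of the first exon relative to the other exons of its gene (horizontal axis, log2) for the 1148 genes tested in all 3 comparisons, with the number of genes on the vertical axis. The medians are 0.70 for MDH2 IP over SMI, 0.70 for IgG IP over SMI and -0.0030 for MDH2 IP over IgG IP.

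TMEM19, which encodes a transmembrane protein, had the largest shift of MDH2 IP over SMI. Its first exon held 138, 146 and 110 counts in MDH2 IP, 7, 19 and 18 in SMI and 80, 112 and 175 in IgG IP. Its other exons held 18, 17 and 25, then 30, 30 and 57, then 5, 3 and 1. The shift was 4.11 ± 0.32 (SE, adjusted p = 1.87e-29) over SMI, while the IgG IP libraries went further in the same direction, with 6.72 for IgG IP over SMI and -2.62 for MDH2 IP over IgG IP (adjusted p = 2.06e-05). The next 4 genes were APC, PALS2, CNOT6 and PGRMC2. APC encodes a scaffold of the complex that degrades β-catenin, and its first exon held 14, 16 and 11 counts in MDH2 IP against 4, 0 and 2 in SMI and 2, 0 and 4 in IgG IP, with a shift of 3.08 ± 0.54 (adjusted p = 4.09e-07). PALS2, a membrane-associated scaffold protein, held 23, 10 and 24 against 2, 5 and 7 in SMI and 19, 23 and 13 in IgG IP. Its shift was 2.99 ± 0.41 over SMI (adjusted p = 8.38e-11), 4.78 for IgG IP over SMI and -1.81 for MDH2 IP over IgG IP. CNOT6, a deadenylase subunit of the CCR4-NOT complex, held 22, 26 and 21 against 5, 6 and 5 in SMI and 7, 11 and 8 in IgG IP, with a shift of 2.94 ± 0.38. PGRMC2, a heme-binding membrane protein, held 40, 42 and 29 against 6, 12 and 11 in SMI and 21, 13 and 21 in IgG IP, with shifts of 2.78 ± 0.33 over SMI and 3.52 for IgG IP over SMI. In all 5 genes every MDH2 IP library had more first-exon counts than every SMI library. Scaled to the library total (CPM), mean first-exon counts were higher in IgG IP than in MDH2 IP in all but APC. They were 195 against 52.4 in TMEM19, 27.1 against 7.62 in PALS2, 26.9 against 14.7 in PGRMC2 and 13.3 against 9.29 in CNOT6. In APC they were 3.06 against 5.45. For PGRMC2 the first-exon log2 fold change of MDH2 IP over IgG IP was -1.63 ± 0.34 (adjusted p = 0.00243). This call was lost without MDH2 IP replicate 1 or IgG IP replicate 3.

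The 5 largest shifts away from the first exon were those of DPP9, WDR74, KLHL42, RPL17-C18orf32 and EXOC3L4. For DPP9, a dipeptidyl peptidase, the first exon held 4, 17 and 5 counts in MDH2 IP, 75, 70 and 41 in SMI and 4, 1 and 0 in IgG IP, while the other exons held 269, 207 and 223, then 121, 110 and 149, then 46, 18 and 19. The shift was -3.69 ± 0.30 (adjusted p = 2.24e-27). For WDR74, a ribosome biogenesis factor, it was -2.78 ± 0.19 (adjusted p = 2.96e-38). KLHL42, a substrate adaptor of a cullin ubiquitin ligase, gave -1.52 ± 0.28, the read-through gene RPL17-C18orf32, whose exon overlaps RPL17, gave -1.20 ± 0.33, and EXOC3L4 gave -1.08 ± 0.37 (adjusted p = 0.0116), a call lost without MDH2 IP replicate 3 or SMI replicate 2.

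At the scale of single windows, 3994 of the 131965 first-exon windows, on 856 genes, reached 10 counts in at least 3 of the 6 MDH2 IP and SMI libraries. A window could pass through the group in which it was high, so the counts below concern these windows alone. With edgeR, 300 windows on 155 genes were enriched in MDH2 IP over SMI (adjusted p at most 0.05 and log2 fold change at least 1), against 4.07% of all windows tested, and 81 windows on 24 genes were lower (log2 fold change at most -1), against 9.92%. These were 7.51% and 2.03% of the first-exon windows. The median log2 fold change was 0.52 for first-exon windows and 0.05 for all windows. Internal exons of the same genes had 2.84% enriched and 3.93% lower windows with a median of 0.14, and highest-numbered exons 2.14% and 8.15% with a median of -0.07. The number enriched depended on each library, and with 1 left out 2736 to 3845 windows could be tested: it was 42, 115 and 150 without MDH2 IP replicates 1, 2 and 3, and 71, 132 and 138 without SMI replicates 1, 2 and 3. The number lower was 52 without MDH2 IP replicate 1 and 46 and 47 without SMI replicates 1 and 2. With libraries scaled to their total counts in place of the TMM factors, 1861 first-exon windows were enriched and 27 lower, and the median over all windows moved to 0.62. The median of first-exon windows stood 0.47 above that of all windows under both scalings.

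Summed per exon, 369 of 2276 first exons were higher in MDH2 IP than in SMI and 15 lower at an adjusted p of 0.05, against 6.33% and 11.9% of all exons tested, with median log2 fold changes of 0.51 for first exons and 0.02 for all. The 369 became 187 and 238 without MDH2 IP replicates 1 and 2, and 155, 223 and 235 without SMI replicates 1, 2 and 3. The 15 became 9 without either MDH2 IP replicate 1 or 2. Between IgG IP and SMI, 221 of 1224 first exons were higher and 11 lower (8.91% and 5.93% of all exons tested). Between MDH2 IP and IgG IP, 9 of 1968 were higher and 67 lower (0.432% and 3.24% of all exons tested).

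The windows in the 5′ UTR had the largest share of enriched windows. Of the tested windows, 1446 on 315 genes could be placed on GRCh38 through current gene models. Among 673 windows in the 5′ UTR, 73 (10.8%) were enriched over SMI and 5 were lower, with a median log2 fold change of 0.75. Among 245 windows that held the start codon, 10 (4.08%) were enriched, with a median of 0.46, and among 380 windows in coding sequence 7 (1.84%) were enriched and 9 lower, with a median of 0.34. The 148 windows outside the exons of the canonical transcript included 13 enriched and 16 lower windows. For IgG IP over SMI the 5′ UTR also came first, with 28 of 189 windows enriched (14.8%) and a median of 0.61, while 0 of 156 windows in coding sequence were enriched, with a median of 0.06. For MDH2 IP over IgG IP it did not: 0 of 525 windows in the 5′ UTR were enriched and 7 were lower, and the median of 0.12 was below those of coding sequence (0.17) and of windows with the start codon (0.31). By position, 119 of 1148 windows numbered 1 to 5 were enriched in MDH2 IP over SMI with a median of 0.69. The median was 0.56 in windows 6 to 10 and 0.35 in windows numbered 26 or more, of which 37 of 675 were enriched and 40 lower.

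The fold changes over SMI moved with the GC content of the window. The median GC content of the placed windows was 66.0% in first exons, 50% in internal exons and 52.0% in highest-numbered exons. In first exons, the median log2 fold change of MDH2 IP over SMI was 0.15 in windows with 40% to 50% GC, 0.28 between 50% and 60%, 0.48 between 60% and 70%, and 0.84 at 70% and above. In the same bins the medians of internal exons were -0.42, -0.04, 0.28 and 0.61, and those of highest-numbered exons were -0.33, -0.11, 0.16 and 0.71. At matched GC content, first exons therefore stood above internal exons by less than the overall medians of the placed windows, which were 0.54 and -0.18. The internal exons had 2797 placed windows on 189 genes, of 23766 tested on 1370 genes. All tested internal windows had a higher median, 0.14, so this comparison covers the placed windows only. For IgG IP over SMI the medians of first exons in these bins were -0.06, 0.09, 0.32 and 0.86. For MDH2 IP over IgG IP they were 0.17, 0.19, 0.21 and 0.05, with no such increase. The part of GC content in the differences from SMI was not tested.

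**Figure D4:**
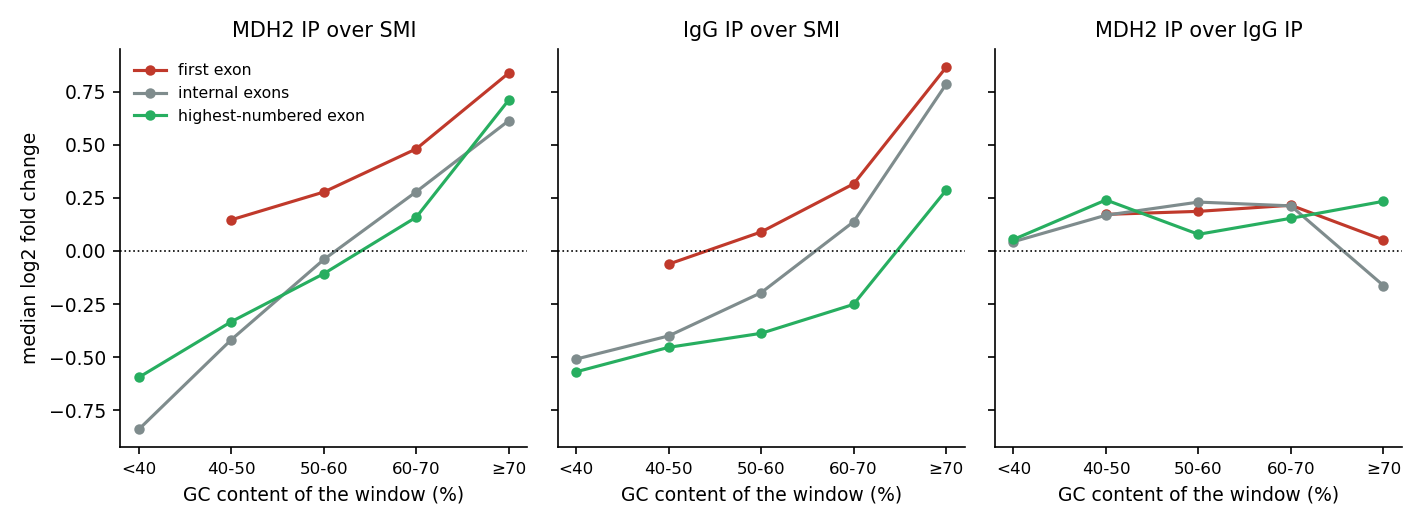
Median log2 fold change of windows (vertical axis) by their GC content (horizontal axis, percent) in first, internal and highest-numbered exons, with 1 panel for each comparison. The lines of first exons begin at 40% GC. Lines rise with GC content over SMI, from 0.15 to 0.84 in first exons for MDH2 IP and from -0.06 to 0.86 for IgG IP, and stay between 0.05 and 0.21 in first exons for MDH2 IP over IgG IP.

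In each of the 300 enriched windows, every MDH2 IP library had more counts relative to its depth than every SMI library. Of all 3994 first-exon windows tested, 1456 had this separation and 212 the reverse. The 300 were chosen by these same libraries, so neither their separation nor their median of 1.76 (log2, against SMI) is a separate test. Set against IgG IP, the same windows had a median of 0.22 (log2), with 186 above 0, 4 enriched and 14 lower. Among the genes with the most enriched windows were KDM2A, with 14 of 26 tested, PABPC1 with 8 of 33, HNRNPU with 8 of 37 and HSP90B1 with 7 of 9. KDM2A is a histone demethylase that binds CpG islands, PABPC1 the poly(A)-binding protein, HNRNPU an RNA-binding protein of the nuclear matrix and HSP90B1 a chaperone of the endoplasmic reticulum (ER). SRRM2, CERS2, P4HB, HNRNPA2B1, TRIR and CTSD had 5 each. Another 90 genes had a single enriched window. Windows of 1 exon overlap and are not separate observations.

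Some of the largest fold changes came from sites stacked in a single position. In SH3BGR, which encodes a small protein rich in glutamic acid, window 6 of exon 1 held 116, 100 and 116 counts in MDH2 IP, 0, 0 and 0 in SMI and 2, 1 and 2 in IgG IP. Window 5 held the same counts and the windows on either side held 0 in every library, so all of these sites lay in the 10 nt that only these windows share. MDH2 IP was at least 33.4-fold higher than SMI, taking 3 counts per library as the floor (adjusted p = 2.37e-09), and over IgG IP its log2 fold change reached 3.44 ± 0.54 (adjusted p = 1.44e-04). TM7SF2, a sterol reductase, had 44, 67 and 33 counts in window 2 against 0, 1 and 1 in SMI and 1, 0 and 0 in IgG IP. Its log2 fold changes were 5.79 ± 0.58 over SMI (adjusted p = 3.94e-07) and 4.46 ± 0.90 over IgG IP (adjusted p = 0.0131), and the latter call was lost without any single IgG IP library. In CDK9, the kinase that releases paused RNA polymerase II, 3 successive windows each held 20, 22 and 14 counts against 0, 0 and 0 in SMI and 0, 1 and 0 in IgG IP, which places the sites in the 10 capital letters TGGCCCCGGA shown above. This stretch lies outside the exons of the current canonical transcript, and exon 1 of CDK9 also holds the microRNA genes MIR3960 and MIR2861, neither of which overlaps the named window. MDH2 IP was at least 5.51-fold higher than SMI (adjusted p = 3.40e-05), and over IgG IP its log2 fold change was 3.08 ± 0.97 (adjusted p = 0.445). TMEM19 had a stack as well, with 120, 143 and 102 counts in window 16 against 4, 8 and 11 in SMI, but 79, 110 and 172 in the smaller IgG IP libraries. On the log2 scale the TMEM19 window differed by 3.83 ± 0.34 from SMI and by -2.84 ± 0.34 from IgG IP. Binding sites with no reads in the input, or with a lone peak of cross-links, were screened out in the study's own list of MDH2 binding regions. No such screen was applied here, and the windows of SH3BGR and CDK9 have no SMI count, while those of SH3BGR, TM7SF2 and CDK9 are single stacks.

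The other enriched windows of the rule-based list were spread over neighbouring windows. LUC7L3, a splicing factor associated with the U1 snRNP, held 21, 18 and 14 counts in window 5 against 1, 2 and 2 in SMI and 1, 3 and 1 in IgG IP (log2 fold change 3.15 ± 0.51 over SMI, adjusted p = 5.42e-04). SRRM2, a scaffold of nuclear speckles, held 25, 16 and 20 in window 17 against 1, 3 and 3 in SMI and 3, 2 and 0 in IgG IP (2.90 ± 0.48, adjusted p = 7.72e-04). In both genes IgG IP counts were low, yet the log2 fold changes over IgG IP, 0.79 ± 0.65 and 1.01 ± 0.66, did not pass the test. METAP2, the aminopeptidase that removes the initiator methionine, held 32, 14 and 12 counts in the window over its start codon against 2, 3 and 1 in SMI and 0, 0 and 0 in IgG IP (3.0 ± 0.53 over SMI, adjusted p = 0.00128). The depth of the IgG IP libraries does not allow a bound above 1 for that window. TUSC2, a tumour suppressor candidate, held 10, 12 and 16 counts in a 5′ UTR window with 78.0% GC against 2, 1 and 1 in SMI and 1, 0 and 0 in IgG IP (3.0 ± 0.67, adjusted p = 0.0138). DCAF1, a substrate receptor of a cullin ubiquitin ligase, held 10, 10 and 19 against 2, 0 and 2 in SMI and 3, 6 and 8 in IgG IP (3.04 ± 0.73, adjusted p = 0.0103), with a log2 fold change of -1.41 ± 0.55 over IgG IP. The unnamed gene ENSG00000259784, whose exon overlaps ATP6V0C, held 12, 13 and 12 against 1, 2 and 0 in SMI and 1, 0 and 1 in IgG IP (3.32 ± 0.72, adjusted p = 0.0105). The TUSC2 window call over SMI was lost without any single SMI library and the ENSG00000259784 window call without SMI replicate 1. Neither window passed with DESeq2.

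**Figure D5:**
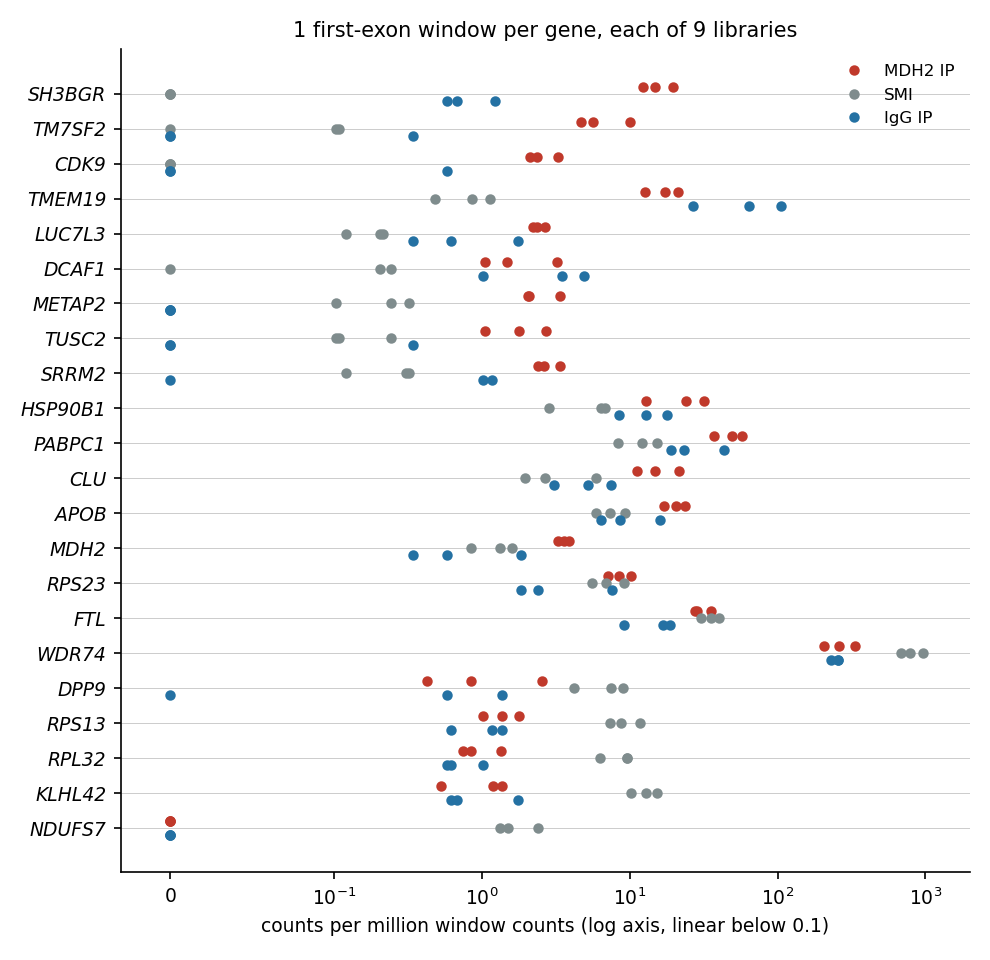
Counts scaled to the library total (CPM) in 1 first-exon window each of genes named in the text (horizontal axis, logarithmic above 0.1 and linear below) in the 9 libraries, with 1 line of points per window. MDH2 IP points lie above SMI in the enriched windows, such as SH3BGR (0 counts in all 3 SMI libraries), and below SMI in the lower ones, such as NDUFS7 (0 counts in all 3 MDH2 IP libraries).

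Over the isotype control, 4 of 2999 first-exon windows were enriched in MDH2 IP (0.148% of all windows tested) and 52 were lower (4.77%). The 4 windows were the stacks of SH3BGR and TM7SF2, with 2 windows each. With edgeR, 306 windows had an unadjusted one-sided p under 0.05 in the direction of MDH2 IP, and DESeq2 called 2 windows. Without IgG IP replicate 1 or 3, 2 windows were called. Without an MDH2 IP library only 585 to 604 windows could be tested, and windows with few IgG IP counts, the 4 called ones included, could no longer pass the filter. The IgG IP libraries were shallower, with 1631220 to 2942624 window counts against 5899767 to 9482209 in MDH2 IP and 8311027 to 9788461 in SMI. IgG IP itself was enriched over SMI in 107 of 1504 first-exon windows and lower in 28 (6.17% and 6.34% of all windows tested), with a median log2 fold change of 0.31 against -0.18 over all windows. The 107 became 62 without IgG IP replicate 1. Without SMI replicates 1, 2 and 3 they became 37, 45 and 44, of only 517, 511 and 515 windows that could then be tested. With total counts as the scale, 14 windows were enriched and 36 lower over IgG IP, and 177 enriched and 15 lower in IgG IP over SMI.

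Of the named windows that were lower in MDH2 IP than in SMI, those of WDR74 and RPL32 overlap the gene of a small RNA. Those of NDUFS7 and DPP9 have the letters of a B box inside them or within 20 bases. NDUFS7, a subunit of respiratory complex I, had 20, 14 and 13 counts in window 3 in SMI and 0, 0 and 0 in both MDH2 IP and IgG IP, so that SMI was at least 5.88-fold higher than MDH2 IP (adjusted p = 1.83e-05). DPP9 had 75, 70 and 41 in SMI against 4, 17 and 5 in MDH2 IP and 4, 1 and 0 in IgG IP, a log2 fold change of -2.99 ± 0.43 (adjusted p = 1.08e-05). Both windows lie outside the exons of the canonical transcript. The B box letters were found on the transcribed strand, in DPP9 inside the window and in NDUFS7 beyond its 3′ end, within 20 bases. Searched in the same way, 2 of the 1446 placed first-exon windows had them inside or within 20 bases. So did 0 of 2797 internal and 4 of 1802 highest-numbered windows, all 4 in APOE and none of them called. WDR74 had 6541, 8987 and 6717 counts in the SMI libraries in a window that overlaps the snRNA gene RNU2-2P, against 2465, 2239 and 1221 in MDH2 IP and 750, 394 and 420 in IgG IP (-2.10 ± 0.20, adjusted p = 1.32e-07). RPL32 had 52, 90 and 93 in SMI against 7, 9 and 5 in MDH2 IP and 3, 1 and 1 in IgG IP in a window that overlaps the snoRNA gene SNORA7A (-3.61 ± 0.34, adjusted p = 9.88e-08). RPS13 had 72, 110 and 72 in SMI against 13, 12 and 6 in MDH2 IP and 4, 2 and 1 in IgG IP (-3.19 ± 0.32). KLHL42 had 85, 143 and 127 in SMI against 5, 8 and 8 in MDH2 IP and 2, 3 and 1 in IgG IP, stacked in 2 windows (-4.19 ± 0.34). In each of the 6 genes all SMI libraries had more counts than any MDH2 IP library. Except for WDR74, these windows were chosen among those with such a separation, so it is not a separate test for them. Over all 856 genes with a tested window, 14 had a small RNA gene within the current exon 1.

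MDH2 mRNA had no called window in its own first exon, a result that depended on the scale. Its first exon held 43, 60 and 27 counts in MDH2 IP, 18, 23 and 24 in SMI and 6, 3 and 3 in IgG IP. Every MDH2 IP library had more counts than any SMI library, yet the log2 fold change per exon was 0.73 ± 0.29 (adjusted p = 0.0954). The window over its start codon held 31, 26 and 21 counts against 7, 15 and 13 in SMI and 1, 1 and 3 in IgG IP (0.99 ± 0.35, adjusted p = 0.195). With total counts as the scale both were called, with log2 fold changes of 1.12 for the exon and 1.56 for the window. The window was also called at a filter of 20 counts, and the exon with the replicate number as a block (0.73) or without MDH2 IP replicate 3 (0.90). Relative to the other exons of the mRNA, the first exon was shifted by 0.88 ± 0.27 over SMI (adjusted p = 0.00379), a call lost without MDH2 IP replicate 2, and by 0.54 ± 0.50 over IgG IP (adjusted p = 0.716). Of the 24 genes of the TCA cycle and the malate-aspartate shuttle, 21 had first-exon windows. Of 10 tested first exons 0 were called in either direction over SMI (median 0.48), against 16.2% higher and 0.659% lower of all first exons tested, and 3 of 10 were shifted towards the first exon with a median of 0.69. With total counts 6 of the 10 were higher (median 0.88), as were 48.0% of all first exons tested. Of 16 windows 1, in GOT2, was enriched with the TMM factors and 13 with total counts. Of all first-exon windows tested, these shares were 7.51% and 46.6%.

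RPS23, a protein of the small ribosomal subunit whose 5′ UTR served the study as a control probe in binding assays, held 69, 69 and 50 counts in MDH2 IP, 76, 66 and 54 in SMI and 7, 13 and 3 in IgG IP. The groups MDH2 IP and SMI overlapped, and the log2 fold change was -0.35 ± 0.24 (adjusted p = 0.353). Its other exons held 188, 149 and 144 in MDH2 IP against 325, 527 and 369 in SMI, so the shift towards the first exon was 1.27 ± 0.21 (adjusted p = 5.16e-08), and 0.83 ± 0.39 over IgG IP (adjusted p = 0.295). The 5′TOP run at the annotated start is shown in capitals for RPS23 and for 4 other mRNAs of the lists named below, from the RefSeq promoter table (GRCh38.p14).
RPS23 (chr5:82278325-82278354, minus strand): CTCTTTCgctcaggcccgtggcgccgacag
RPS13 (chr11:17077638-17077667, minus strand): CCTTTCgttgcctgatcgccgccatcatgg
RPL37A (chr2:216498844-216498873, plus strand): CTTTCTgggctcggacctaggtcgcggcga
RPLP2 (chr11:809967-809996, plus strand): CCTTTTCCTCCCTgtcgccaccgaggtcgc
EEF2 (chr19:3985434-3985463, minus strand): CTCTTCCgccgtcgtcgccgccatcctcgg

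With the TMM factors, first exons of ribosomal protein mRNAs were lower in MDH2 IP than in SMI more often than first exons of all genes. Their median shift towards the first exon was close to that of all genes. Of 76 genes, 54 had first-exon windows. Among 47 tested first exons 4 were higher and 6 lower in MDH2 IP than in SMI, with a median of -0.15. Of all first exons tested 16.2% were higher and 0.659% lower, and of all exons 6.33% and 11.9%. Among 45 genes, 34 were shifted towards the first exon and 0 away from it, against 49.7% and 0.865% of all genes tested, with a median shift of 0.79 against 0.75. RPLP2, an acidic stalk protein, held 258, 228 and 281 counts in MDH2 IP against 206, 230 and 244 in SMI, a log2 fold change of -0.05 ± 0.21, with a shift of 0.96 ± 0.16 (adjusted p = 4.85e-08). RPL32 was lower over the whole exon, with a log2 fold change of -0.87 ± 0.17 (adjusted p = 0.00302), and shifted by 0.71 ± 0.15, and RPS13 was lower with -1.15 ± 0.21 (adjusted p = 0.00165). The direction at the level of exons depended on the scale. With total counts, 11 ribosomal first exons were higher and 2 lower with a median of 0.24, while the median over all exons was 0.42 in place of 0.02. Of all 2276 first exons tested, 48.0% were then higher and 8 were lower. For windows, 4 of 306 were enriched and 42 lower, against 7.51% and 2.03% of all first-exon windows and 4.07% and 9.92% of all windows. With total counts 53 were enriched and 11 lower, against 1861 (46.6%) and 27 of all 3994 first-exon windows. Over IgG IP, 0 of 47 first exons were called, and 1 of 45 genes was shifted towards the first exon (median 0.10).

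A 5′TOP start, a C followed by at least 4 pyrimidines at the first annotated base, was found in 411 of 7732 matched genes with first-exon windows (5.32%), in 30 of 42 matched ribosomal protein genes and in 1429 of 35116 promoters of the table (4.07%). Of the tested genes with such a start, 85 of 141 were shifted towards the first exon in MDH2 IP over SMI (median 0.79), against 833 of 1674 without it (median 0.75). Without ribosomal protein genes it was 63 of 113 (median 0.75). Of 17 other mRNAs known for a 5′TOP start, 10 had first-exon windows, and 3 of 6 were shifted (median 0.60). PABPC1 was one of them and had all 8 enriched windows of this list. Its first exon held 783, 773 and 667 counts in MDH2 IP, 288, 427 and 398 in SMI and 129, 124 and 56 in IgG IP. In MDH2 IP the exon was higher than in SMI by 0.76 ± 0.18 on the log2 scale (adjusted p = 0.0100), a call lost without SMI replicate 1, and its log2 difference from IgG IP was 0.22 ± 0.26, and the shift over SMI was 1.09 ± 0.14 (adjusted p = 1.46e-12). For EEF2, the elongation factor of ribosome translocation, the shift was 0.13 ± 0.17 (adjusted p = 0.515).

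Among chaperones of the ER and secreted liver proteins, some first exons were higher in MDH2 IP than in SMI. Of all exons tested 6.33% were higher and 11.9% lower, and of all first exons tested 16.2% and 0.659%, while 49.7% of all genes tested were shifted towards the first exon. Of 15 chaperone genes, 13 had first-exon windows, and 3 of 9 tested first exons were higher over SMI with a median of 0.67, while 6 of 9 were shifted towards the first exon with a median of 0.62. With total counts 5 of the 9 were higher, as were 48.0% of all first exons tested. IgG IP gave 3 of 8 higher over SMI with a median of 0.91. HSP90B1 held 480, 470 and 163 counts in MDH2 IP, 102, 142 and 46 in SMI and 60, 68 and 36 in IgG IP. The whole exon had a log2 fold change of 1.61 ± 0.35 for MDH2 IP over SMI (adjusted p = 0.00530), 1.72 ± 0.34 for IgG IP over SMI (adjusted p = 8.05e-04) and 0.04 ± 0.30 for MDH2 IP over IgG IP. Relative to its other exons, which held 3718, 3386 and 1095 counts in MDH2 IP against 385, 244 and 93 in IgG IP, the first exon was shifted by 0.74 ± 0.16 over SMI (adjusted p = 5.29e-05) and by -0.79 ± 0.20 over IgG IP (adjusted p = 0.00542). The latter call was lost without IgG IP replicate 2 or 3, and against exon 2 alone the value was 0.040. Exon 1 of HSP90B1 also holds the microRNA gene MIR3652. HSPA5, the major ER chaperone of the HSP70 family, was shifted by 0.42 ± 0.15 over SMI (adjusted p = 0.0144), a call lost without any of 4 single libraries (MDH2 IP replicates 2 and 3, SMI replicates 2 and 3), and CALR, a lectin chaperone, by 0.07 ± 0.14 (adjusted p = 0.670).

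Of 21 genes for secreted liver plasma proteins, 14 had first-exon windows, and 5 of 11 tested first exons were higher over SMI with a median of 0.58, while 6 of 11 were shifted towards the first exon with a median of 0.49. With total counts 9 of the 11 were higher, as were 48.0% of all first exons tested. Over IgG IP 0 of 11 were called in either way. CLU, which encodes the extracellular chaperone clusterin, held 142, 145 and 67 counts in MDH2 IP, 22, 55 and 19 in SMI and 22, 9 and 5 in IgG IP. The exon stood at a log2 fold change of 1.6 ± 0.33 over SMI (adjusted p = 0.00350) and 0.73 ± 0.34 over IgG IP (adjusted p = 0.315), with a shift of 1.05 ± 0.21 over SMI (adjusted p = 6.96e-06). APOB, the scaffold protein of very-low-density lipoprotein, held 298, 242 and 169 counts in MDH2 IP, 129, 151 and 106 in SMI and 99, 25 and 24 in IgG IP. Every MDH2 IP library lay above every SMI library, and the shift was 1.41 ± 0.16 (adjusted p = 2.26e-14). Its window of the 5′ UTR shown above held 196, 160 and 100 counts against 77, 69 and 58 in SMI and 47, 11 and 14 in IgG IP, and its log2 fold change of 0.95 ± 0.25 (adjusted p = 0.0394) fell short of the threshold of 1. Of 12 cytosolic heat shock proteins 6 had first-exon windows, and of the 2 tested 0 were called per exon and 1 was shifted.

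The first exons with the most counts in MDH2 IP were those of WDR74, PABPC1, FTH1, HNRNPA2B1 and FTL. FTH1 and FTL encode the ferritin chains, whose 5′ UTR holds the iron-responsive element. FTL held 616, 512 and 406 counts in MDH2 IP against 997, 1101 and 989 in SMI and 137, 62 and 54 in IgG IP, and its log2 fold change was -1.29 ± 0.17 (adjusted p = 1.27e-04). FTL was nevertheless shifted towards its first exon by 0.59 ± 0.14 (adjusted p = 1.36e-04), as its other exons were lower still. FTH1 held 765, 788 and 663 against 635, 811 and 844 in SMI, with overlapping groups and a log2 fold change of -0.29 ± 0.18 (adjusted p = 0.292). Its shift was 0.94 ± 0.14 (adjusted p = 7.87e-10) against all other exons and -0.70 against exon 2 alone. HNRNPA2B1 held 826, 523 and 511 against 342, 359 and 418 in SMI, with a log2 fold change of 0.44 ± 0.18 (adjusted p = 0.0962) and a shift of 0.30 ± 0.14 (adjusted p = 0.0591).

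The libraries carried the marker genes of hepatocytes, the cell type Huh7 derives from: the summed exon counts of 9 such genes were 10263 to 19977 in MDH2 IP, 15060 to 20114 in SMI and 1083 to 4286 in IgG IP. Markers of blood cells summed to 0 to 3 and those of fibroblasts to 4 to 49 counts per library. First exons held 89921 to 129357 non-overlapping counts in MDH2 IP, 66919 to 81181 in SMI and 14359 to 29035 in IgG IP.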

How the data were processed

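The authors trimmed the reads with cutadapt, aligned them to hg38 with STAR, kept reads with up to 10 alignments, removed PCR copies by their molecular identifiers and counted cross-link sites in windows of GENCODE v23 features with software based on HTSeq. They deposited these counts, raw and not normalized, for 9 libraries. Reads of near-identical genes can be split or counted in several places. Columns were matched to samples by their names, and gene names, types and places come from GENCODE v44. The members and gene lists were chosen with earlier results of these data known.

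Sums per exon or region used windows 3 steps apart, which do not overlap and leave short gaps uncounted between them. Tests used edgeR 4.0.16 in R 4.3.3 (quasi-likelihood, TMM, at least 10 counts in at least 3 of 6 libraries) on all genes, with Benjamini-Hochberg adjustment over all features tested. Window p-values were one-sided and multiplied by how many tested windows overlapped. Shifts were fitted with the library as a block. Log2 fold changes are given with standard errors, and "at least" folds, which cover counting error only, use a floor of 3 counts per library. Exact two-sided permutation tests were used for shares. Scripts were tested on simulated counts. DESeq2 1.42.0, other scalings, filters, reference exons and single-library omissions were tried as alternatives. Exon 2 or the highest-numbered exon as the reference, each strand alone, and the omission of 10 genes together with a reach of 10 windows were chosen after seeing the data.

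Named genes were MDH2, RPS23, HSP90B1, PABPC1, CLU, the 10 most enriched and 5 most lowered windows with non-overlapping libraries, the 5 first exons with most MDH2 IP counts, all windows enriched over IgG IP, the 5 largest shifts each way, and up to 3 genes per list. Other genes are named for their enriched windows, after their values were seen. Replicate libraries of 1 group differed by more than sampling noise. The result for 1 gene is not reported here.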

Additional observations from a re-analysis of the deposited data

How the results depend on the processing

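Counts of first-exon calls depended on scaling and filter. Windows enriched in MDH2 IP over SMI numbered 300, against 95 with DESeq2, 1861 with total counts, 91 at a log2 fold change of 2, 0 with a loose filter (at least 1 count in 2 libraries), and 42 to 150 leaving out 1 library. Lower windows numbered 81, against 27 with total counts, 47 at 20 counts, 25 at a log2 fold change of 2, 0 with the loose filter, and 46 to 68. Windows enriched over IgG IP numbered 4 of 2999, against 2 (DESeq2), 14 (total counts), 15 (two-sided p), 606 of 86353 (loose filter) and 0 to 3. Windows enriched in IgG IP over SMI numbered 107, against 177 (total counts), 238 (5 counts), 69 (20 counts), 47 (log2 fold change of 2), 0 (loose filter) and 37 to 98. First exons higher than in SMI numbered 369, against 141 (DESeq2), 1093 (total counts) and 155 to 269, and those lower 15, against 8 (total counts) and 9 to 15.

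Genes were also counted by their shift towards and away from the first exon. In MDH2 IP over SMI they numbered 1130 of 2245 and 15. At 20 counts 697 of 1091 were shifted towards it, and with exon 2 alone 130 of 666 towards and 8 away. Leaving out 1 library gave 761 to 1033 and 9 to 13. Over IgG IP they numbered 22 (8 over all windows, 10 with the loose filter, 10 with exon 2 alone, and 8 to 17) and 74 (28 over all windows, 43 at 20 counts, 49 with the loose filter, 2 with exon 2 alone, 40 with the highest-numbered exon alone, and 40 to 61). In IgG IP over SMI they numbered 346 (198 at 20 counts, 25 with exon 2 alone, and 194 to 292) and 13 (8 at 20 counts, 7 with exon 2 alone, and 7 to 16). The shifts of FTH1 over SMI (-0.70) and HSP90B1 over IgG IP (0.040) reversed with exon 2 alone.

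The first-exon share differed by 2.07 points between MDH2 IP and SMI (2.69 without the 10 genes with most counts; 1.88 to 2.35), by -0.45 between MDH2 IP and IgG IP (-0.64 to -0.17) and by 2.52 between IgG IP and SMI (3.07; 2.24 to 2.68). The share in windows 1 to 5 differed by 3.6 (3.27 to 3.89), 1.94 (1.61 to 2.16) and 1.66 (1.34 to 1.95) points. With first exons reaching window 10, the differences from SMI reversed to -2.25 and -3.88, and without the 10 genes as well they were 4.63 and 2.32. The cause was not tested.

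The labels give the replicates the same numbers but do not say whether same-numbered libraries share a culture. Deviations of same-numbered MDH2 IP and SMI libraries correlated at 0.00, 0.36 and 0.37 for replicates 1, 2 and 3. MDH2 IP replicate 2 with SMI replicate 3, and replicate 3 with replicate 2, both gave -0.36. Deviations within a group of 3 libraries depend on each other, so these values largely repeat 1 contrast, that between replicates 2 and 3. This contrast ran the same way in MDH2 IP and SMI, while replicate 1 showed no such tie. The main fits did not use the replicate number. With the replicate number as a block, 626 windows were enriched in MDH2 IP over SMI, 746 first exons were higher and 30 lower; MDH2 IP replicate 1 correlated best with SMI replicate 2. Of 4216 recomputed values for single named genes, 3959 kept their side of the threshold, 155 lost the call, 100 gained it and 2 reversed. Direction was compared only where the main or the alternative fit made a call. Values without a call may therefore have changed sign among the 3959. Depth limits what could be tested: 2999 first-exon windows passed the filter with MDH2 IP and IgG IP and 1504 with IgG IP and SMI, against 3994 with MDH2 IP and SMI, and with IgG IP involved, leaving out a library of the deeper group left 511 to 604 windows.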
